A study of Arabidopsis thaliana with 17 samples.

Results

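The comparison described here sets the H3K27me3 domains of formaldehyde-fixed endosperm nuclei of Arabidopsis thaliana against those of unfixed nuclei. Its members are 2 fixed and 2 unfixed H3K27me3 libraries of the 17 samples in the series, and the 29320 domains in their 4 lists, of 35198 domains in 5 lists. All 4 libraries came from 6N nuclei sorted on DAPI from seeds of Col mothers and Ler fathers, collected 4 days after pollination. Fixed nuclei were held in 1% formaldehyde for 8 min on ice after sorting and quenched with glycine, and unfixed nuclei had no formaldehyde. One library of leaf nuclei, from Col plants 3 weeks old, served as an outside point of reference. Nothing in the labels says that replicates 1 and 2 came from separate plants or sorts, so the spread between them may be technical.

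H3K27me3, histone H3 trimethylated at lysine 27, is set by Polycomb repressive complex 2 and covers repressed genes in broad domains. In plants it keeps developmental regulators such as the MADS-box flowering genes silent outside their own tissue or stage, and in the endosperm it lies more on the maternal copy of many imprinted genes. CUT&RUN maps it with an antibody that tethers a nuclease, which cuts and releases the chromatin beside it from nuclei held on beads, so formaldehyde is optional. A domain is a thresholded call, and an interval that is missing from a list may still carry the mark below the threshold.

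The lists were compared step by step on the 150 bp grid that their intervals share. A stretch is a run of at least 600 bp held by a named set of lists and by no other endosperm list. Both fixed lists and no unfixed list held 984 stretches, 977 nuclear and 7 on the chloroplast chromosome, with 910.5 kb in all. Both unfixed lists and no fixed list held 411 stretches with 375.9 kb, all nuclear. Without unfixed replicate 2 the order turned, with 1372 stretches in both fixed lists and not in unfixed replicate 1, against 2591 for the reverse. The sides were then unlike, as an interval had to be held by 2 fixed lists or by 1 unfixed list. With unfixed replicate 1 left out instead, the counts were 4850 and 1783, and the order was kept. Because unfixed replicate 2 had narrower domains, stretches it alone lacked and stretches it alone held are given apart, as 3893 stretches (4.22 Mb) and 1356 stretches (1.36 Mb). All 4 lists shared 4801 stretches with 8.02 Mb.

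As library-level values, covered length was 19.8 and 20.2 Mb in fixed replicates 1 and 2, against 21.3 and 12.7 Mb in unfixed replicates 1 and 2. The lists held 7136 and 5966 fixed domains, against 7815 and 8403 unfixed domains. Both fixed libraries thus had fewer domains than either unfixed library, with a mean difference of -1558 (exact permutation p = 0.333, two-sided, n = 2 each; 0.333 is the smallest p this design allows). Mean covered length was 20.0 ± 0.274 Mb with fixation, against 17.0 ± 6.10 Mb without (exact permutation p = 1.00, SD over 2 libraries each). That difference of 2.99 Mb turned to -1.32 Mb without unfixed replicate 2. Domains of 5 kb or more made up 11.8% and 16.9% of the fixed lists, against 11.0% and 2.34% of the unfixed lists, and domains of 600 bp or less made up 4.22% and 1.94% against 3.49% and 17.2%. Unfixed replicate 1 thus lay near the fixed pair in width, and unfixed replicate 2 stood apart.

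**Figure D1:**
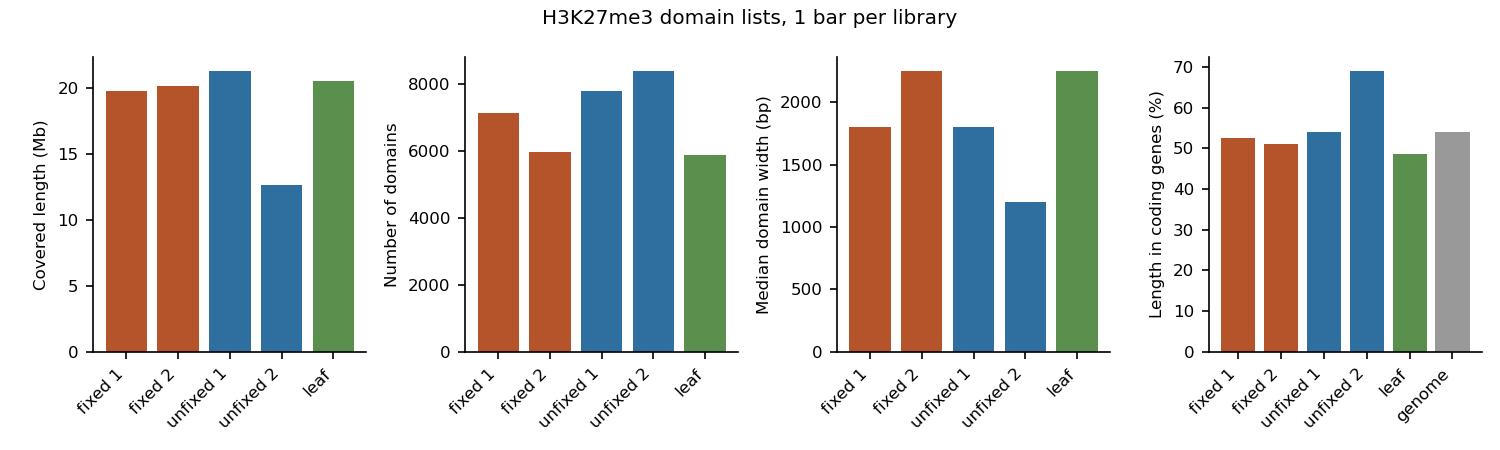
Covered length in Mb, number of domains, median domain width in bp and the share of nuclear domain length inside protein-coding genes in percent, with 1 bar per library and no error bars. Unfixed replicate 2 has the least covered length (12.7 Mb), the narrowest median (1200 bp) and the highest share in protein-coding genes (69.0%, against 54.1% of the nuclear genome).

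The 984 stretches of the fixed pair were about as numerous as those shared only by 1 fixed and 1 unfixed library. Fixed replicate 2 and unfixed replicate 1 alone shared 1048 stretches (972.3 kb), and fixed replicate 1 and unfixed replicate 1 alone shared 910 (852.0 kb). Pairs with unfixed replicate 2 held fewer, at 217 with fixed replicate 1, 175 with fixed replicate 2 and 411 with unfixed replicate 1. Single lists alone held more than any pair, from 1356 stretches in unfixed replicate 2 to 2227 in unfixed replicate 1. Membership in the lists is what defines these sets, so the counts are descriptions with no test. On the fixed side, 589 further runs were 450 bp, just under the minimum, and 301 were exactly 600 bp. On the unfixed side these numbers were 156 and 111.

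**Figure D2:**
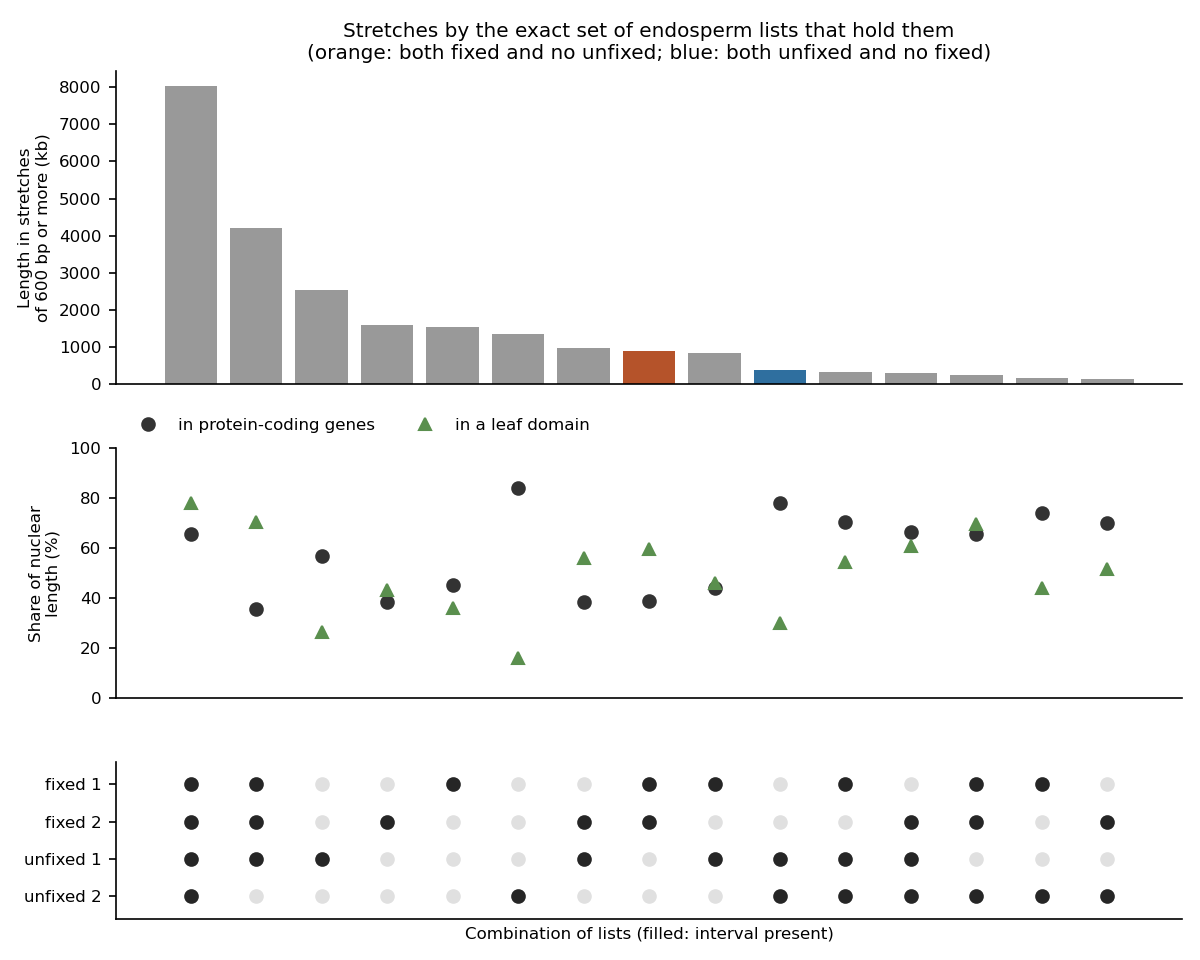
Length in stretches of 600 bp or more in kb (top), shares of nuclear length in percent (middle) and the lists that hold the interval (bottom), for the 15 combinations of the 4 endosperm lists. The middle panel uses every interval of the combination, also those under 600 bp. The fixed-only bar (910.5 kb, orange) stands between the bars of the pairs that join unfixed replicate 1 to fixed replicate 2 (972.3 kb) and to fixed replicate 1 (852.0 kb).

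Most fixed-only stretches were the flanks or inner gaps of domains that an unfixed list also held. At least one end touched an unfixed domain in 669 of 984 (68.0%), and both ends did in 193. The 308 nuclear stretches that touched none lay a median of 900 bp from the nearest unfixed domain. Unfixed-only stretches were more often free-standing, as 122 of 411 (29.7%) touched a fixed domain, 17 of them at both ends, and the 289 others lay a median of 1950 bp away. Without unfixed replicate 2 the shares that touched a domain were 65.8% for both fixed lists against unfixed replicate 1 and 47.0% for the reverse. The gap was narrower, with 2 fixed lists set against 1 unfixed list. The stretches around unfixed replicate 2 fell the same way. Those missing from it alone touched one of its domains in 67.3% of cases, and those it alone held touched a domain of another endosperm list in 23.4%. For stretches of the other single lists that share was 78.7% (fixed replicate 2), 58.7% (fixed replicate 1) and 53.9% (unfixed replicate 1). A high share was thus not particular to the fixed pair.

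**Figure D3:**
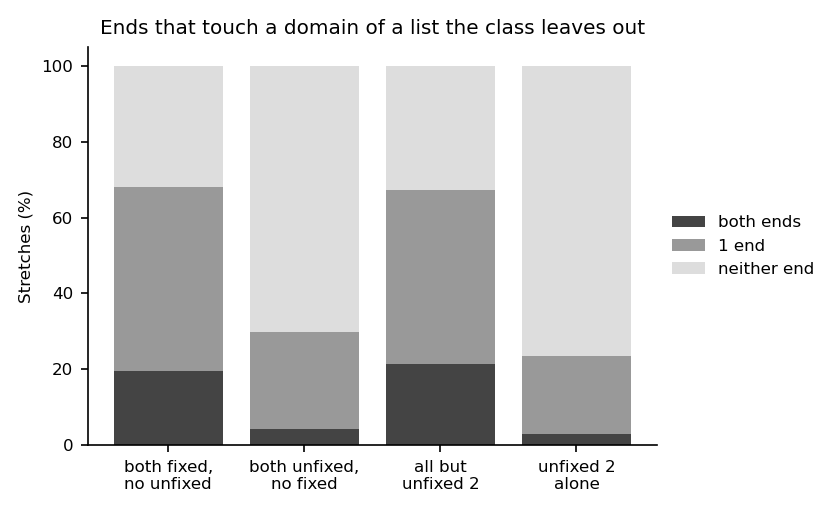
Percent of stretches in each class whose ends touch a domain of a list that the class leaves out, at both ends, at 1 end or at neither. Fixed-only stretches touch an unfixed domain in 68.0% of cases and unfixed-only stretches touch a fixed domain in 29.7%.

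Seen as whole domains, few met the same treatment only. Such domains numbered 339 in fixed replicate 1 (4.75% of its list) and 267 in fixed replicate 2 (4.48%), against 346 in unfixed replicate 1 (4.43%) and 399 in unfixed replicate 2 (4.75%). The authors' enrichment of these domains lay low within each list, at a median percentile of 38.4 and 39.9 in the fixed lists and 30.0 and 32.3 in the unfixed lists. Domains that met all 3 other endosperm lists had median percentiles of 57.0 to 62.1. Domains that met no other endosperm list ranked lower still, at 30.8 and 36.2 in the fixed lists and 28.3 and 26.0 in the unfixed lists. Domains of one treatment thus ranked below the middle of their list at the median, as did domains of a single list.

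Fixed-only and unfixed-only stretches differed in where they lay relative to genes, a property the rule did not use. Protein-coding gene bodies held 39.3% of the nuclear length of fixed-only stretches, against 80.8% of that of unfixed-only stretches, and 54.1% of the nuclear genome. No annotated gene covered 56.4% of fixed-only length, against 13.9% of unfixed-only length. The order held on each of the 5 chromosomes, where coding shares ran from 31.1% to 46.2% for fixed-only and from 75.9% to 87.1% for unfixed-only stretches. No test over libraries was made, since each class is 1 set.

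Much of that contrast moved with unfixed replicate 2. Its whole list lay in protein-coding genes over 69.0% of its length, against 52.5% and 50.9% in the fixed lists and 54.1% in unfixed replicate 1. Stretches missing from it alone were 33.3% coding and those it alone held were 85.9% coding. Pairs of 1 fixed and 1 unfixed list split the same way. Counting every interval of a combination, unfixed replicate 1 with fixed replicate 1 or 2 was 44.2% or 38.7% coding. Unfixed replicate 2 with fixed replicate 1 or 2 was 73.9% or 70.0% coding. Fixed-only intervals were 39.1% and unfixed-only intervals 78.0% coding on that count. With unfixed replicate 2 left out, stretches in both fixed lists but not in unfixed replicate 1 were 46.5% coding, against 63.1% for the reverse. The direction was kept and the gap was narrower. Here too 2 fixed lists were set against 1 unfixed list, so the sides were unlike.

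The leaf library offered a list that took no part in choosing the stretches. Leaf domains covered 58.2% of fixed-only nuclear length, against 25.3% of unfixed-only length. Across the 5 chromosomes the shares ran from 53.7% to 62.0% and from 13.7% to 34.0%, without overlap. Stretches in all 4 endosperm lists lay in leaf domains over 78.5% of their length, and steps of the genome in no endosperm list over 4.03%. Both classes therefore lay between the shared domains and the unmarked genome, the fixed-only class nearer the shared domains. Pairs of 1 fixed and 1 unfixed list lay there too. Counting every interval of a combination, their leaf shares ran from 44.0% to 56.0%, against 59.7% for fixed-only and 30.2% for unfixed-only intervals. Leaf domains covered 70.2% of the length that unfixed replicate 2 alone lacked and 13.9% of the length that it alone held. Without that library the leaf shares were 61.7% for stretches in both fixed lists and not in unfixed replicate 1, against 23.4% for the reverse. With 1 leaf library there is no test of these shares, and whether leaf nuclei were fixed is not given in the labels.

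Read counts came from a table of reads that the authors assigned to the Col or Ler parent in 150 bp bins, with 12189039 nuclear reads for H3K27me3 and 7638577 for H3. Its columns name no library or treatment, so fixed and unfixed reads cannot be compared in it, and depth per library is unknown. How much each treatment gave to the pool cannot be told apart from the level of a stretch. Level is the log2 of H3K27me3 over H3, scaled to the nuclear totals, and 0.5 was added to each count. Counting reads of both parents, 766 of 977 fixed-only stretches and 302 of 411 unfixed-only stretches had the minimum of 10 reads per antibody, while 121 and 68 had none.

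Levels placed both classes between unmarked and shared chromatin. The median level was 0.61 in fixed-only stretches and 0.31 in unfixed-only stretches, against 1.20 in stretches of all 4 lists and -0.24 in those of none. Stretches shared only by unfixed replicate 1 and fixed replicate 1 or 2 had medians of 0.53 and 0.58. Those shared only by unfixed replicate 2 and fixed replicate 1 or 2 had 0.34 and 0.42. H3K27me3 reached at least 2-fold over H3 in 19.2% of fixed-only and 6.29% of unfixed-only stretches, and in 65.6% of stretches in all 4 lists. The stretches missing from unfixed replicate 2 alone had a median of 0.94, and those it alone held had 0.01, with 49.4% of them below 0. Regions that only unfixed replicate 2 called thus carried about as much H3K27me3 per H3 in the pool as the genome average. The pool includes the libraries that made the lists, so these levels are no independent check of the calls.

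**Figure D4:**
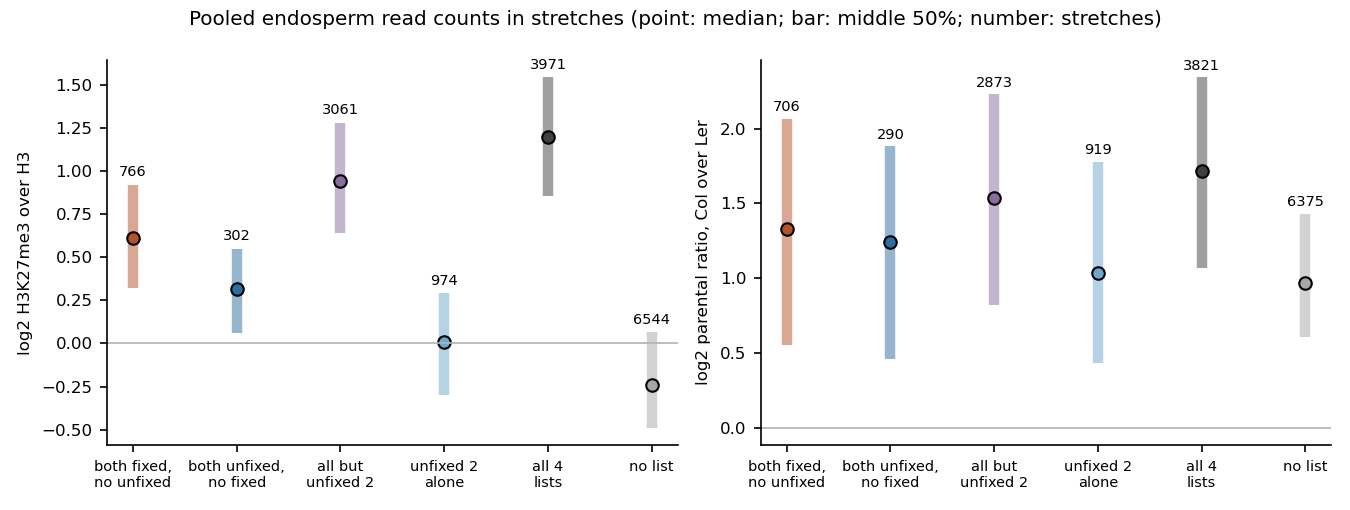
The log2 level of H3K27me3 over H3 (left) and the log2 parental ratio (right) in stretches of each class, from the pooled endosperm read counts. Points are medians, bars span the middle 50% of stretches and numbers give the stretches with enough reads. Median levels run from 1.20 in all 4 lists through 0.61 (fixed-only) and 0.31 (unfixed-only) to -0.24 in no list, while the median parental ratios of the fixed-only and unfixed-only classes, 1.33 and 1.24, lie close together.

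By parent, the H3K27me3 reads of fixed-only stretches were 134490 from Col and 12762 from Ler, and their H3 reads were 49359 and 11393. In unfixed-only stretches the H3K27me3 reads were 48412 from Col and 4888 from Ler, and the H3 reads were 22007 and 5181. The Col share of H3K27me3 was 91.3% (95% Wilson interval 91.2 to 91.5) in fixed-only and 90.8% (90.6 to 91.1) in unfixed-only stretches, and that of H3 was 81.2% (80.9 to 81.6) and 80.9% (80.5 to 81.4). These intervals cover counting error only. For H3K27me3 the shares by chromosome overlapped between the classes, with lowest values of 90.6% and 90.4%. In both, the maternal Col copy took a larger part of H3K27me3 than of H3.

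The parental ratio, the log2 of Col over Ler in H3K27me3 against the same in H3, had a median of 1.33 in 706 fixed-only stretches and 1.24 in 290 unfixed-only stretches with at least 20 reads per antibody. By chromosome the medians ran from 1.24 to 1.46 and from 1.11 to 1.31, so the ranges overlapped. The ratio was 1.72 in stretches of all 4 lists, 1.54 in those missing from unfixed replicate 2 alone, 1.03 in those it alone held and 0.97 in those of no list. H3 in the same stretches carries the 2 maternal and 1 paternal genomes of the endosperm and any mapping preference for Col, and a value above 0 is an excess over that. Unmarked chromatin already had such an excess, and both classes stood above it by less than the shared domains did. The Col share of H3 was itself 81.2% in stretches of no list, more than 2 maternal to 1 paternal genomes give. What Col nuclei other than endosperm added to either antibody was not tested, so the ratio is not a measure of endosperm alone.

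Few genes were covered by the stretches themselves. Fixed-only stretches covered at least 50% of the body of 129 of 27529 protein-coding genes (0.469%), 125 nuclear and 4 in the chloroplast, and unfixed-only stretches covered 52 (0.189%), all nuclear. Without unfixed replicate 2 the counts were 233 for both fixed lists against unfixed replicate 1 and 577 for the reverse. The order of the counts thus turned without that library, with 2 fixed lists set against 1 unfixed list. Counted by whole domains, 273 genes (0.992%) were covered over 50% or more in both fixed lists and neither unfixed list, and 133 (0.483%) in both unfixed lists and neither fixed list. All 4 lists shared 3262 such genes (11.8%). The single lists marked 5593 and 5587 genes in fixed libraries, against 5928 and 4383 in unfixed libraries.

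Of the 125 nuclear fixed-only genes, 87 had no covered base in either unfixed list and 31 were covered in full in both fixed lists. Of the 52 unfixed-only genes, 40 had no covered base in either fixed list and 5 were covered in full in both unfixed lists. In leaf, 76 of the 125 (60.8%) and 18 of the 52 (34.6%) were covered over 50% or more, against 20.3% of all protein-coding genes. Domains have no strand, so a gene and an overlapping or antisense neighbour cannot be separated.

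The widest fixed-only stretch was 3450 bp (chromosome 5, 25997701 to 26001150, TAIR10) and lay over MAF5, a MADS-box gene of the FLC clade of flowering regulators. MAF5 (AT5G65080) was covered over 67.4% and 74.2% of its body in fixed replicates 1 and 2, against 0% in both unfixed lists, and over 79.2% in leaf. The stretch touched no unfixed domain, and the nearest one was 2550 bp away. Its H3K27me3 reads were 379 from Col and 28 from Ler, and its H3 reads were 107 and 40, a level of 0.79 and a parental ratio of 2.33. The pool thus held more H3K27me3 than H3 over MAF5 and more of it on the maternal copy than the median fixed-only stretch.

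A stretch of 3300 bp on chromosome 4 (7556251 to 7559550) covered the pseudogene AT4G12915 over 85.6% of its body. It lay outside every leaf domain and had a level of 0.26. The third, of 2550 bp on chromosome 1 (20008201 to 20010750), filled the gap between unfixed domains at both of its ends, and it covered all of AT1G53610. That gene was covered over 100% in both fixed lists and in leaf, against 0% in both unfixed lists. GA3OX3, which encodes a gibberellin 3-oxidase of the step that makes active gibberellin, lay under a stretch of 2400 bp on chromosome 4 (11525701 to 11528100) that reached 48% of its body and was wholly inside leaf domains. Of the 10 widest fixed-only stretches, 4 lay outside every leaf domain.

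Among other covered genes with an annotated symbol, GRP3S, a glycine-rich protein, was covered over 100% and 90.7% in fixed lists, against 0% in both unfixed lists, and over 38.6% in leaf. RAX2, a MYB factor of axillary meristems, was covered over 95.5% and 71.0% in fixed lists, against 0% in both unfixed lists, and over 100% in leaf. PIPK10, of a family of phosphatidylinositol phosphate kinases, was covered over 66.1% and 59.5% in fixed lists, against 0% in both unfixed lists and in leaf. Among the endosperm lists these 3 had domains in the fixed lists only, and leaf matched the fixed lists at RAX2 and the unfixed lists at PIPK10.

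For 5 others, an unfixed list reached part of the gene. CuAO1, a copper amine oxidase, was covered over 82.0% and 85.4% in fixed lists, against 0% and 20.5% in unfixed lists. LURP1, induced on infection by an oomycete, was covered over 90.0% and 83.5% in fixed lists, against 0% and 32.4% in unfixed lists. ARD3, an acireductone dioxygenase of methionine salvage, was covered over 85.7% in both fixed lists, against 20.9% and 0% in unfixed lists. SSL4, of the strictosidine synthase-like family, and Nek7, a NIMA-related kinase, were covered over at least 81.5% in fixed lists and at most 32.3% in unfixed lists. In all 5 the fixed values lay above the unfixed values, as their choice requires. Levels in the pool ran from -0.04 for PIPK10 and 0.23 for CuAO1 to 0.80 for GRP3S and 0.93 for Nek7.

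Outside the rule for naming, and picked after their values were seen, a few regulators had the same pattern. WRKY71, a WRKY transcription factor, was covered over 100% in both fixed lists, against 0% and 31.2% in unfixed lists, and over 100% in leaf. IAA30, of the Aux/IAA family of auxin response repressors, was covered over 80.1% and 66.7% in fixed lists, against 0% in both unfixed lists, and over 100% in leaf. MYB16, a MYB factor of cuticle formation, was covered over 54.4% in both fixed lists, against 0% in both unfixed lists, and over 71.1% in leaf. In contrast, bZIP4, a bZIP transcription factor, was covered over 100% and 69.0% in fixed lists, against 0% in both unfixed lists, and over 11.2% in leaf. Cover in leaf thus differed among these 4 genes.

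The widest unfixed-only stretch was 2550 bp (chromosome 3, 17872201 to 17874750) and lay over WNK3, of the plant WNK kinase family. WNK3 was covered over 0% in both fixed lists, against 87.8% and 71.2% in unfixed replicates 1 and 2, and over 100% in leaf. The H3K27me3 reads of the stretch were 785 from Col and 30 from Ler, and its H3 reads were 322 and 74, a level of 0.37 and a parental ratio of 2.57. Unlike most of its class, this stretch lay wholly inside a leaf domain. The second, of 2250 bp on chromosome 2 (9767401 to 9769650), lay over ACA7, an autoinhibited calcium pump, which was covered over 0% and 34.4% in fixed lists, against 76.9% and 65.4% in unfixed lists. Another of 2250 bp on chromosome 2 (17736451 to 17738700) lay over PPC2, a phosphoenolpyruvate carboxylase, with 0% in both fixed lists, against 78.1% and 70.9% in unfixed lists.

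Next by covered bases among unfixed-only genes with a symbol, E1 ALPHA, a subunit of pyruvate dehydrogenase, was covered over 0% in both fixed lists, against 76.3% and 62.4% in unfixed lists. CLH1, a chlorophyllase, was covered over 0% in both fixed lists, against 100% and 77.3% in unfixed lists. MAPKKK14, a MAP kinase kinase kinase, had 0% in both fixed lists, against 92.6% and 82.4% in unfixed lists. None of these 3 had a covered base in leaf. COR15A, a cold-induced protein of the chloroplast stroma, was covered over 3.17% and 0% in fixed lists, against 71.4% and 73.0% in unfixed lists. CYP71A21, a cytochrome P450, was covered over 6.83% and 0% in fixed lists, against 100% and 94.3% in unfixed lists. ROH1 had 0% in both fixed lists, against 71.9% and 81.2%, and POM1, a chitinase-like protein of cell wall formation, had 8.01% and 20.9% in fixed lists, against 91.5% and 72.2%. The levels of these unfixed-only genes ran from -0.17 for POM1 and -0.16 for CYP71A21 to 0.58 for COR15A and MAPKKK14.

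**Figure D5:**
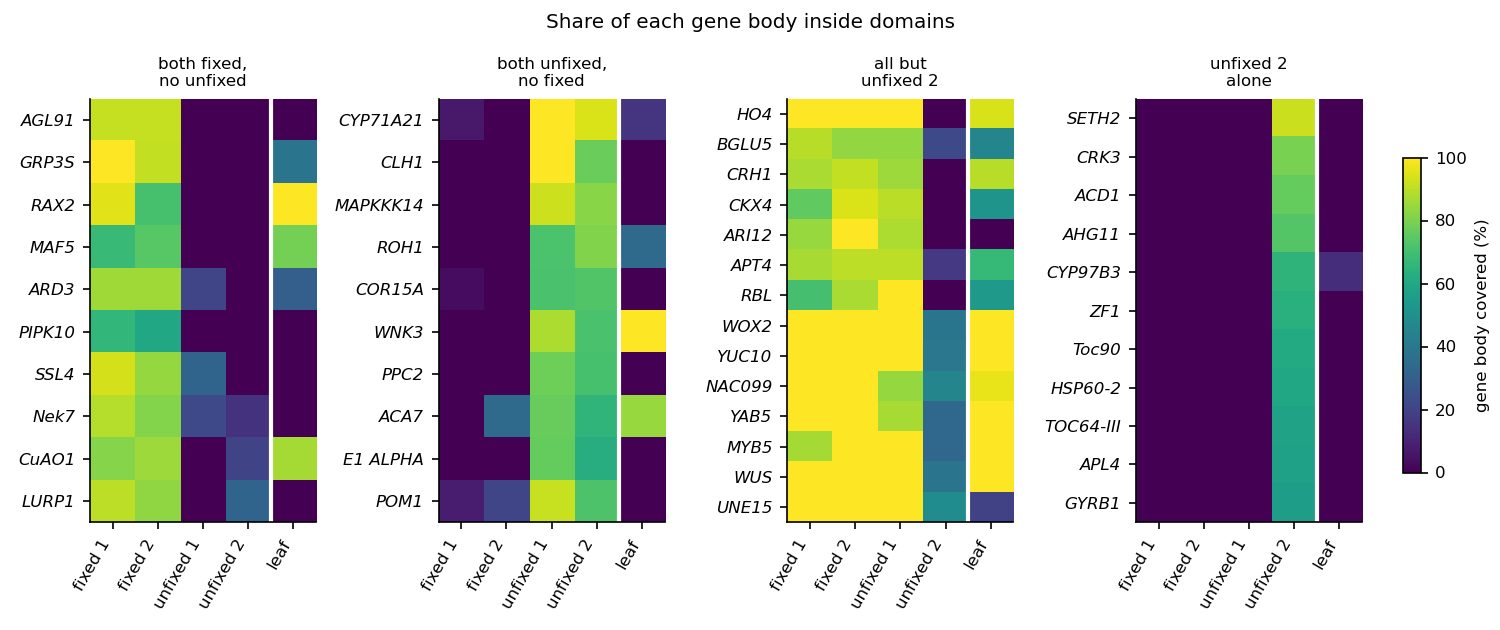
Percent of each gene body inside domains for the named protein-coding genes with a symbol, in the fixed, unfixed and leaf lists, grouped by the class of stretch that covers them. Values follow from how the genes were chosen, except in leaf, where RAX2 and WNK3 are covered over 100% while PIPK10 and PPC2 are at 0%.

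Of 13 gene lists for tissues and complexes of the seed, with 159 genes, few members were covered by the stretches, as among all genes. Fixed-only stretches covered at least 50% of 1 of 26 floral and flowering-time regulators (MAF5) and 1 of 15 type I MADS-box genes (AGL91), and of none in the other 11 lists, against 0.469% of all protein-coding genes. Unfixed-only stretches covered at least 50% of none of the genes in the 13 lists, against 0.189% of all. Counts this small say nothing particular about the lists. AGL91 was covered over 91.1% in both fixed lists, against 0% in both unfixed lists and in leaf. Its body held 1 H3K27me3 read and no H3 read, so no level can be given. HDG9, a homeodomain gene expressed from the maternal copy in endosperm, was covered over 56.7% in both fixed lists, against 26.7% and 30.0% in unfixed lists, and fixed-only stretches reached 20.0% of it. AGL20 (SOC1), which promotes flowering, was covered over 95.3% and 97.9% in fixed lists, against 68.4% and 12.4% in unfixed lists.

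Regulators that Polycomb silences in many tissues were covered in similar numbers in the fixed lists and unfixed replicate 1. Floral and flowering-time regulators covered over 50% or more numbered 17 and 18 of 26 in fixed lists, against 18 and 11 in unfixed lists. Meristem and boundary regulators numbered 11 of 14 in both fixed lists, against 11 and 8, and embryo and seed maturation genes numbered 12 and 13 of 15, against 12 and 11. Root regulators stood at 10 of 11 in every list. Paternally expressed imprinted genes numbered 9 and 8 of 9 in fixed lists, against 8 and 7, and maternally expressed ones numbered 2 of 10 in both fixed lists, against 1 and 2. Type I MADS-box genes numbered 9 of 15 in both fixed lists, against 8 in both unfixed lists. Subunits of Polycomb repressive complex 2 numbered 1 and 2 of 8, against 2 and 1, and those of complex 1 with its recruiting factors 1 and 2 of 10, against 1 in both. For comparison, 20.3% of all protein-coding genes were covered in each fixed list, against 21.5% and 15.9% in unfixed lists.

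Markers of other cell types were counted in the same way. Seed coat genes numbered 3 and 4 of 12 in fixed lists, against 3 and 2 in unfixed lists, photosynthesis genes 3 of 13 in both fixed lists, against 3 and 4, and endosperm regulators 3 of 14 in both fixed lists, against 4 and 3. H3K27me3 is a repressive mark, so cover of a marker is not its expression, and what cell types other than endosperm gave to each library was not tested. Housekeeping genes numbered 1 of 12 in every endosperm list. Among them, unfixed-only stretches reached 32.1% of GAPC2, a glycolytic dehydrogenase, which had 0% in both fixed lists, against 32.1% in both unfixed lists. Such stretches also reached 20.4% of PP2AA3, a phosphatase scaffold, which had 50.9% and 61.6% in fixed lists, against 84.8% and 57.7% in unfixed lists. GAPC2 had a level of -0.24, about that of unmarked chromatin.

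The stretches that unfixed replicate 2 alone lacked covered at least 50% of 503 genes (1.83%), and 971 genes (3.53%) were covered over 50% or more in the 3 other lists and not in it. Of the 159 list genes, these stretches covered 4, close to the share over all genes, so the 4 are named as examples. WUS, the stem cell factor of the shoot meristem, and WOX2, a factor of the early embryo, were covered over 100% in both fixed lists, against 100% in unfixed replicate 1 and 38.6% and 38.7% in unfixed replicate 2. YUC10, an auxin biosynthesis gene expressed from the paternal copy, was covered over 100% in both fixed lists, against 100% and 39.6%. MYB5, a seed coat factor, had 86.6% and 100% in fixed lists, against 100% and 33.5%. In these 4 genes the domain was cut back rather than missing, and all 4 were covered over 100% in leaf.

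Other genes had no cover in unfixed replicate 2. HO4, a heme oxygenase, was covered over 100% in both fixed lists, against 100% and 0% in unfixed lists. CKX4, a cytokinin oxidase, had 75.6% and 94.4% in fixed lists, against 89.7% and 0%, and ARI12, a RING-type protein of the ARIADNE family, had 84.4% and 100%, against 87.7% and 0%. YAB5, a YABBY factor of lateral organs, kept part of its cover, at 100% in both fixed lists, against 87.1% and 33.7%. Levels in the pool were 1.60 for WUS, 1.55 for YUC10 and 2.16 for MYB5, against 0.23 for CKX4 and -0.14 for ARI12. The widest stretch missing from unfixed replicate 2 was 5850 bp on chromosome 1 (4096651 to 4102500), with a level of 1.82 and no annotated gene.

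Stretches that unfixed replicate 2 alone held covered at least 50% of 276 genes (1.00%), and 367 genes (1.33%) were covered over 50% or more in it alone. SETH2, an enzyme of GPI anchor synthesis, CRK3, a protein kinase, and ACD1, an oxygenase of chlorophyll breakdown, had 0% in both fixed lists, against 0% in unfixed replicate 1 and 91.9%, 79.7% and 76.4% in unfixed replicate 2. Toc90 and TOC64-III, parts of chloroplast protein import, HSP60-2, a mitochondrial chaperonin, and GYRB1, a DNA gyrase subunit, had the same pattern, at 55.5% to 61.1%. Their levels were all below 0, from -0.61 for Toc90 to -0.14 for TOC64-III, while SETH2 had 0.21. ZF1, a zinc finger gene on the list of Polycomb recruiting factors, was covered over 63.6% in this library alone and had a level of -0.46. The named genes of this library alone thus had levels around or below the genome average, against 0.23 to 0.93 for 8 of the 9 nuclear fixed-only genes taken for their covered bases.

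Chloroplast DNA is not wrapped in histones, and its chromosome had domains in the fixed lists and in no other of the 5 lists. Fixed replicates 1 and 2 had 7 and 26 such domains with 8.70 and 67.2 kb, against 0 in both unfixed lists and 0 in leaf (exact permutation p = 0.333 for kb, two-sided, n = 2 each). They covered 5.64% and 43.5% of the chromosome. The fixed lists shared 8.25 kb, which is 94.8% of the cover in replicate 1 and 12.3% of that in replicate 2, in 7 stretches of 750 to 1800 bp. These lay over rpoC2 and rpoC1, rpoB, psaB, psaA, cemA and petA, rpl14 and rpl16, and ndhG, ndhI and ndhA. Apart from cemA, these genes encode subunits of the plastid RNA polymerase, photosystem I, the cytochrome b6f complex, the ribosome and the NDH complex. Fixed replicate 1 reached only 0.18% of ndhA.

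In fixed replicate 1, psaA, rpl14, ndhG and ndhI were the 4 chloroplast protein-coding genes of 85 covered over 50% or more, at 66.6% to 100%. In fixed replicate 2, 50 of 85 were covered, with rbcL, the large subunit of Rubisco, at 100% and psbA, a photosystem II core protein, at 93.6%. It also covered 9 of 37 tRNA genes and none of 7 rRNA genes. The rRNA genes lie in the repeated part of the chromosome, which spans 47.1 kb (30.5% of it) and held no domain. Their lack of cover is thus shared with the whole repeat, and its cause was not tested. The authors' enrichment of chloroplast domains had a median percentile of 98.9 within the list of fixed replicate 2 and of 13.6 within that of fixed replicate 1. The replicates thus differed in how much of the chloroplast was called and in how strongly. All chloroplast bins of the parental table held 0 reads, so these domains have no Col or Ler counts, and no list held a mitochondrial domain.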

How the data were processed

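CUT&RUN libraries with H3 or H3K27me3 antibodies were made from sorted nuclei. Per the submitters' processing notes the tools were Trim Galore, Bowtie2, Picard, deepTools 2.0 and SICER, with the TAIR10 build, and no step is tied to a tool. The authors deposited 1 domain list per H3K27me3 library. Its p-value or q-value, not told apart in the sources, was at or under 0.05 in every list the authors deposited. The enrichment score of each domain was computed by the authors on a base that is not stated, and was used only as a rank within a list. The authors also deposited whole-number read counts per parent in 150 bp bins, pooled over libraries, and bins were placed by their midpoint.

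Lists were laid on the 150 bp grid and compared with Python 3.11.15, numpy 2.4.6, pandas 2.3.3 and scipy 1.17.1. A gene was covered when stretches or domains held 50% or more of its body. Levels needed 10 reads per antibody and parental ratios 20, with 0.5 added to counts. Stretch finding, gene cover and count ratios were tested on simulated data. Library values were compared by two-sided exact permutation tests. Alternatives changed the replicates used, stretch length, score and p or q limits, gap joining, gene cover, read minimum and pseudocount.

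Genes came from the RefSeq TAIR10.1 table, whose coordinates were taken to be those of TAIR10. Checked this way, 34 of 40 genes of the floral and meristem lists were covered in leaf in place, against 11 and 9 when moved by 50000 bp either way. No annotation coordinate is printed. Positions are counted from 1.

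Named are, per class, genes covered over 50% or more by the 10 widest stretches, the 10 covered protein-coding genes with a symbol and the most covered bases, list members covered over 50% or more, and the chloroplast stretches. The rule takes in some that are summarised only by range. Of 178 list entries, 169 were kept, and 9 were dropped for no or a wrong match. The members and lists were chosen with earlier results of these data known. H3 was used only as pooled parental counts, and the IgG libraries and those of seed coat or embryo nuclei were not analysed here.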

Additional observations from a re-analysis of the deposited data

How the results depend on the processing

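Across 18 results, 109 alternative values were computed, of which 67 were counted as kept, 41 as moved and 1 as reversed. Kept meant within 1.5 times for counts of stretches and genes, and within the interval for medians and shares. For shares of length the interval treated the share as a count out of the number of stretches, so it is a rough yardstick only. The share of stretches that met a leaf domain at all, another measure, was scored against the same interval. For the differences between library-level values it meant the same sign only, whatever the size. Covered length, fixed minus unfixed, reversed to -1.32 Mb without unfixed replicate 2, with a range of -1.32 to 7.30 Mb over the single libraries left out, and the cause was not tested. The fixed lists had fewer domains under each alternative (-973 to -2143 with a library left out). With a library left out the median width difference ran from 225 to 825 bp. Fixed minus unfixed, it was 0 bp between the replicates numbered 1 and 1050 bp between those numbered 2. The labels do not say whether the replicate numbers pair the libraries, and a correlation of deviations of -0.0222 over 2 pairs cannot decide it. As a replicate block the covered length differences were -1.51 Mb for number 1 and 7.50 Mb for number 2 (exact sign-flip p = 1.00), and the block gave p = 0.500 for the number of domains and p = 1.00 for the width. Without unfixed replicate 2, fixed-only stretches numbered 1372 and unfixed-only stretches 2591, which turned their order. With any library left out, fixed-only stretches numbered 1372 to 4850, unfixed-only stretches 815 to 2591, stretches missing from unfixed replicate 2 alone 4803 to 4886 (with no value without unfixed replicate 2, which defines them), fixed-only genes 233 to 768 and unfixed-only genes 124 to 577, since fewer lists are asked to hold or lack an interval. At a minimum of 300 and 1200 bp, fixed-only stretches numbered 2137 and 222, unfixed-only stretches 766 and 86 and those missing from unfixed replicate 2 alone 6144 and 1324. At 1200 bp, genes numbered 67 and 31. With any overlap they numbered 578 and 382, and at 80% of the body 30 and 8. Median levels without a read minimum were 0.53 (fixed-only) and 0.22 (unfixed-only), at 40 reads 0.54 and 0.26, and at 1200 bp 0.21 in unfixed-only stretches. Parental ratios without a minimum were 1.17 and 0.97, and at 40 reads 1.28 and 1.33. Medians without a minimum took in the 121 fixed-only and 68 unfixed-only stretches with no reads. The values of those stretches come only from the added 0.5 and, for levels, the scaling. Leaf overlap in fixed-only stretches was 53.8% at 1200 bp and 61.7% without unfixed replicate 2, and 66.8% of fixed-only and 32.1% of unfixed-only stretches met a leaf domain at all. Coding shares without unfixed replicate 2, a setting chosen after seeing the data, were 46.5% and 63.1%, and shares of stretches touching a domain of the other treatment were 65.8% and 47.0%. Depth per library is unknown, so domains missed for lack of reads cannot be told from regions without the mark.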
